A study of Caenorhabditis elegans with 2 samples.

Results

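The subject is the stretch of chromosome III that holds pros-1, K06H7.7 and grp-1, and every deposited ChIP-seq summit in these 3 genes or within 5000 bp of them, out of 19973 protein-coding genes annotated in the worm. The genes were chosen by a rule based on the positions and signal values of summits in the same peak lists, with earlier results known, so the presence of peaks here is a description and was not tested. Of the 737 peaks that the authors kept by their irreproducible discovery rate (IDR) procedure, which compares replicates, 3 lay in the chosen windows. All 3 genes have such a peak in the body or within 5000 bp, as do 1745 (8.74%) of all protein-coding genes. Of the 30000 candidate regions in each wider list, background included, 11 lay there in the list made from both replicates pooled, 14 in that of replicate 1 and 16 in that of replicate 2. The kept peaks are the 737 strongest by signal value in the pooled list, so passing IDR here follows a peak's pooled rank.

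The samples were whole late embryos of Caenorhabditis elegans strain OP500, of mixed sex, which carries unc-119(tm4063) on chromosome III and the insertion wgIs500. Chromatin was immunoprecipitated for the eGFP-tagged PROS-1 and sequenced (ChIP-seq), in 2 biological replicates of 1 group, with no second condition. The labels describe the insertion as targeting pros-1, and it can add copies of the gene's surroundings. How far added copies reach and how many there are was not tested. Sequencing depth is unknown, because the lists give positions and scores without numbers of reads, and in whole embryos the cells that gave a peak are not identified.

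PROS-1 belongs to the Prospero family of homeodomain transcription factors, which in flies and vertebrates act when cells leave division and take on their final type. In the worm it is known from the glia that wrap sensory endings and from the excretory canal cell. ChIP-seq peaks mark DNA recovered with the tagged protein, directly or through other proteins, and a factor's own gene is a common place to look for binding by its product.

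The DNA under the locus's peaks is shown first, because the 3 peaks lie in different kinds of sequence. The strongest summit lay in the short interval from which K06H7.7 and grp-1 diverge, the next over a tRNA gene inside an intron of pros-1, and the weakest in the following intron. Sequences are from the RefSeq WBcel235 assembly, the same build as ce11, and are written 5′ to 3′ on the plus strand. In the first, the whole interval at chrIII:8085476-8085704 is given, with a match to the PHA-4 motif (TGTTTGC, here on the minus strand) in capitals. In the second, at chrIII:8069403-8069503, capitals mark the tRNA gene. In the third, at chrIII:8070188-8070288, capitals mark a match to AAGACG or AAGGCG, letters searched here as a Prospero-type site, on the minus strand.

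K06H7.7 and grp-1 interval: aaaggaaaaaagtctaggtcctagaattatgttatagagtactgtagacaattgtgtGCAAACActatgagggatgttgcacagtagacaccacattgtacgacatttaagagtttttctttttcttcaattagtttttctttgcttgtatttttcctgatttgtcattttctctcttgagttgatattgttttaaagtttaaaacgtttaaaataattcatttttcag
pros-1 intron 6 summit: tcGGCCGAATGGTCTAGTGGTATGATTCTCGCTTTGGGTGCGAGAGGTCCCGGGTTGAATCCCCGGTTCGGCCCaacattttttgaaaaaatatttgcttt
pros-1 intron 7 summit: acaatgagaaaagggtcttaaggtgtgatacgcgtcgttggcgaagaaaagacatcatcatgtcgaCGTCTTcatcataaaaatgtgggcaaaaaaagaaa

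The strongest PROS-1 peak of the locus spanned the gap between K06H7.7 and grp-1. grp-1 encodes a cytohesin, an activator of Arf GTPases, known in the worm from neuroblast divisions that yield dying cells. The authors' signal value, a score relative to the control on a scale that is not stated, was 102.7 in the pooled list, 36.0 in replicate 1 and 65.7 in replicate 2. The peak was thus high in both replicates, at rank 1 of 30000 in replicate 1 and rank 28 of 30000 in replicate 2.

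The pooled summit lay 78 bp upstream of the start of K06H7.7 (III, 8083692 to 8085475, minus strand) and 152 bp upstream of that of grp-1 (III, 8085705 to 8088449, plus strand). The summits of the replicates were 18 bp apart, at 8085564 in replicate 1 and 8085546 in replicate 2. Both therefore fell inside the 229 bp gap. The signal value in the pooled list was 2.82 times the median of IDR peaks (36.4) and ranked 10 among 737, and 4 among the 128 on chromosome III. The -log10 q-value was 3.11, a q-value of 0.000783, which is the ceiling of the list and is shared by 639 IDR peaks.

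Most divergent promoters, like most promoters, had no PROS-1 peak in the IDR list. Of 1696 pairs of neighbouring protein-coding genes that diverge across at most 1000 bp, 70 (4.13%) had an IDR summit in the gap. Among the 319 pairs with a gap no longer than 229 bp, which leaves less room for a summit, 7 (2.19%) did. Over all protein-coding genes, 2.55% had an IDR summit from 1000 bp upstream to 200 bp downstream of a start. That window is longer than any of these gaps and is counted per gene, not per pair. A pooled candidate, background included, lay in 555 (32.7%) of the 1696 gaps. Of the 70, only K01G5.10 and tasp-1 had a stronger peak (signal value 117.4) than K06H7.7 and grp-1, and the median of the 70 was 34.5. This pair was chosen with its peak known, so its place in that order is a description. Whether copies added by the insertion reach this pair and raise its signal value was not tested.

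A second divergent pair lay in the same stretch. dcr-1, which encodes Dicer, and apc-2, which encodes a subunit of the anaphase-promoting complex, start 347 bp apart, and no summit lay in their gap in the IDR or pooled lists. In replicate 2 a single weak summit at 8080211 (signal value 8.69, rank 6627) lay in the first intron of dcr-1, inside the promoter windows of both genes. The promoter window here runs from 1000 bp upstream to 200 bp downstream of a start. Replicate 1 had no summit in either window.

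**Figure D1:**
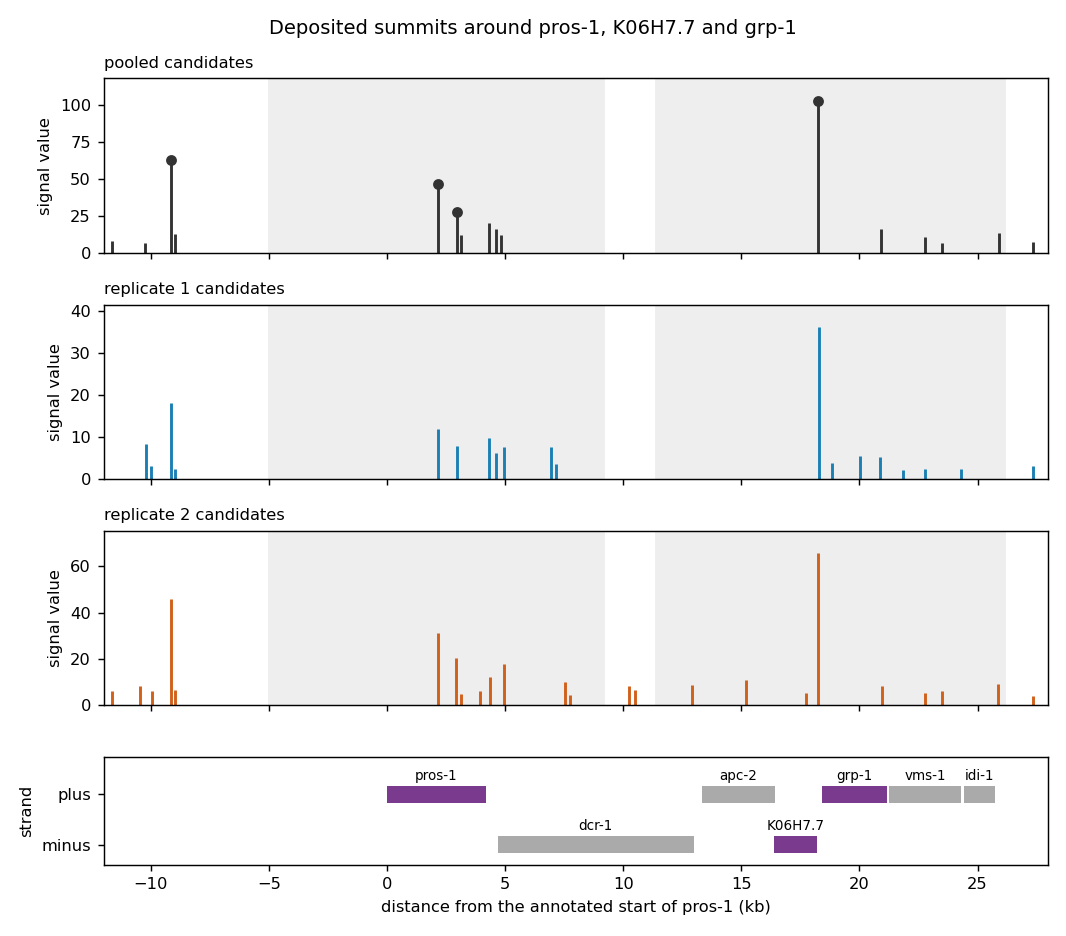
Deposited summits by distance from the annotated start of pros-1 (x, kb), with each summit's signal value (y, a separate linear scale per list) for the pooled list and both replicates. Dots mark IDR peaks, grey bands the windows of 5000 bp around the 3 genes, and bars below the protein-coding genes by strand. The tallest bar in every list is the one between K06H7.7 and grp-1.

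PROS-1 peaks inside pros-1 itself lay in introns and not at its promoter. The gene (III, 8067289 to 8071463, plus strand) has 10 exons in 1 annotated transcript. The stronger peak, from 8069291 to 8069614, had its summit at 8069453 in intron 6, which is 161 bp long, and its signal values were 46.7 in the pooled list, 11.9 in replicate 1 and 31.2 in replicate 2. Its ranks were 197, 268 and 299, so the replicates placed it alike.

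The intron 6 summit fell inside the tRNA gene K12H4.t1 (III, 8069405 to 8069476, plus strand), annotated in RefSeq as a tRNA-Pro gene, and inside the non-coding RNA gene K12H4.10 on the opposite strand. tRNA genes are transcribed by RNA polymerase III from promoter elements within the gene. Its 72 bp sequence occurs 1 time in the reference genome, but reads shared with near-identical tRNA genes, or with copies on the insertion, were not examined. Of 612 annotated tRNA genes, 36 (5.88%) were overlapped by an IDR peak, among them 4 of 42 tRNA-Pro genes and 15 of the 290 that lie within a protein-coding gene. At 46.7, the signal value at K12H4.t1 was above the median of 33.7 over those 36 genes, and 3 of them had a stronger peak.

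The intron 7 peak, from 8070076 to 8070399, was near the bottom of the IDR list. Its signal values were 27.5 in the pooled list, 7.87 in replicate 1 and 20.2 in replicate 2, with ranks of 679, 1079 and 775. In neither replicate was it among the 737 strongest candidates, and its pooled rank placed it in the IDR list. The last peak to pass had a signal value of 26.41 and the next candidate 26.37. Passing thus does not measure the agreement of the replicates at a single peak. Of the 737 IDR peaks, 607 (82.4%) had a match within 100 bp in both replicates.

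The combination of 2 peaks in the body was rare. Only 21 of 19973 protein-coding genes (0.105%) had 2 or more IDR summits in the gene body. Those 21 genes had a median length of 13581 bp, against 2027 bp over all protein-coding genes, and 1 of them was shorter than pros-1 (4175 bp). With 5000 bp to either side counted as well, pros-1 still had 2, and 0.866% of protein-coding genes had as many or more. Whether extra copies from the insertion raise scores at pros-1 was not tested.

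The annotated promoter of pros-1 carried no summit in any list. Its window held 0 summits in the IDR list, 0 among the pooled candidates and 0 in each replicate, and 7551 of the 19973 protein-coding genes (37.8%) likewise had 0 in the pooled list and both replicates. A count of 0 among listed regions does not give an upper limit on binding, since regions below the end of each list are not recorded. The 5000 bp upstream of pros-1 were also empty in all 4 lists, and the closest summits upstream were 8964 bp away in the pooled list, 8963 bp in replicate 1 and 8959 bp in replicate 2.

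A strong PROS-1 peak lay further upstream, outside the chosen window. Its summit at 8058124 was 9165 bp before the start of pros-1, in the 16207 bp between pros-1 and the next protein-coding gene, K12H4.7, and 1055 bp from the non-coding gene K12H4.11. Signal values there were 62.6 in the pooled list, 18.1 in replicate 1 and 45.9 in replicate 2, all above those of either pros-1 intron. Its ranks were 84, 67 and 106, and the summits of the replicates were 1 bp apart. It is the only IDR peak gained when the window is widened to 10000 bp. Peak positions do not assign it to a gene.

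The remaining candidates of the locus did not pass IDR, and some were listed in 1 replicate alone. In the pooled list they numbered 8, with signal values from 6.56 to 19.98. The strongest was at 8071608, between the end of pros-1 and the 3′ end of dcr-1, with 19.98 in the pooled list, 9.76 in replicate 1 (rank 544) and 12.2 in replicate 2 (rank 2572). Replicate 1 alone would have placed it among its 737 strongest regions.

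A pair of summits inside dcr-1 was found in both replicates but had no pooled summit within 100 bp. It lay in coding exon 26, at 8072262 in replicate 1 (signal value 7.53, rank 1265) and at 8072226 in replicate 2 (17.6, rank 1067), 36 bp apart. The nearest pooled summit, at 8072097, was 165 bp from that of replicate 1. Its region, from 8071935 to 8072258, overlapped those of both replicates. Near the other members, a candidate in the 3′ UTR of grp-1 had signal values of 16.1 in the pooled list, 5.10 in replicate 1 and 8.30 in replicate 2, with ranks of 2208, 5033 and 7489. No pooled or replicate 1 summit lay in the body of K06H7.7, and replicate 2 had 1 there, at 8085013 in intron 2 (4.97, rank 22124). In the body of pros-1 the remaining candidates were at 8070440 in coding exon 8, with a signal value of 12.3 in the pooled list (rank 4826) and 4.74 in replicate 2 (rank 23864), and at 8071241 in the 3′ UTR in replicate 2 alone (6.18, rank 14885). In grp-1, replicate 1 alone had summits in introns 2 and 5, with signal values of 3.86 (rank 10815) and 5.55 (rank 3808).

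In all, 6 of the 11 pooled summits had a match within 100 bp in both replicates, 3 only in replicate 2, 1 only in replicate 1 and 1 in neither. The last, at 8072097, is the one whose region overlapped those of the pair in dcr-1. Counted from replicate 1, 7 of its 14 summits had one of replicate 2 within 100 bp. The 3 IDR peaks were among the matched ones. The others were the summits downstream of pros-1 and in exon 26 of dcr-1, in the 3′ UTR of grp-1, and in coding exon 7 of vms-1, the homolog of yeast Vms1, with ranks of 27694 and 21845. At idi-1, which encodes isopentenyl-diphosphate isomerase, the gene body held no IDR summit.

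**Figure D2:**
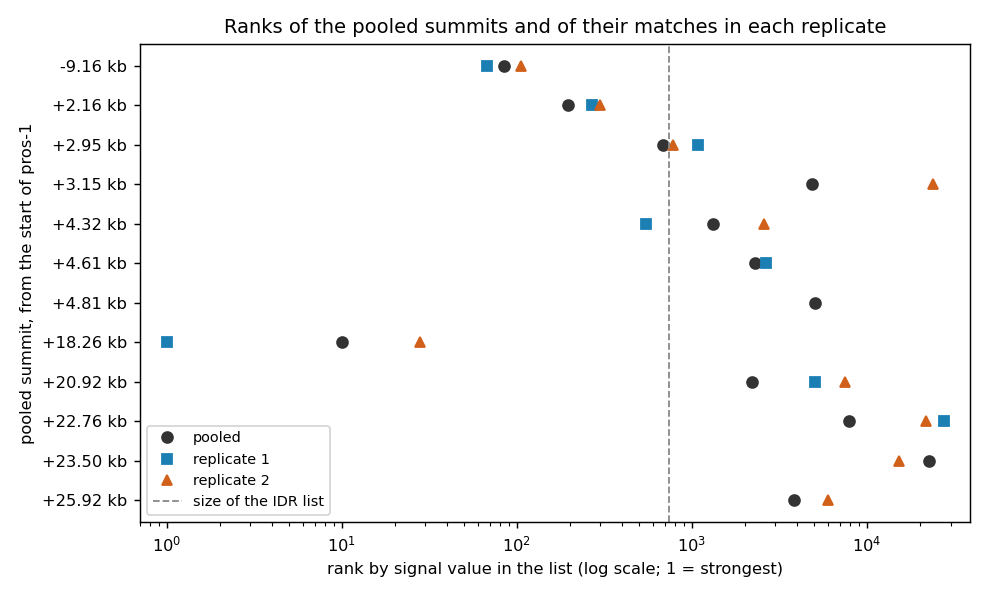
Rank by signal value (x, log scale, 1 is the strongest of 30000) of each pooled summit in the windows and of the upstream IDR peak, with the rank of its match within 100 bp in each replicate. Rows are labelled by distance from the start of pros-1, and the dashed line marks the size of the IDR list, 737. The summit 18264 bp after the start, between K06H7.7 and grp-1, has ranks 10, 1 and 28, whereas that at 2949 bp, in intron 7, lies on both sides of the line.

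The balance between the replicates at these peaks was compared with that over the list. Signal values in replicate 1 were lower than in replicate 2 at most IDR peaks, and over the 607 peaks matched in both, the ratio of replicate 1 to replicate 2 had a median of 0.343 (interquartile range 0.224 to 0.468). At the K06H7.7 and grp-1 peak the ratio was 0.549, with 97 of the 607 peaks higher. The pros-1 peaks were closer to the middle, at 0.382 for intron 6 and 0.389 for intron 7, and the upstream peak was at 0.393. The replicates' scores are on separate scales, so no mean and SD over replicates is given. The summits of the replicates were 18 bp apart at K06H7.7 and grp-1, 19 bp in intron 6 and 33 bp in intron 7, against a median of 37 bp over the 607.

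**Figure D3:**
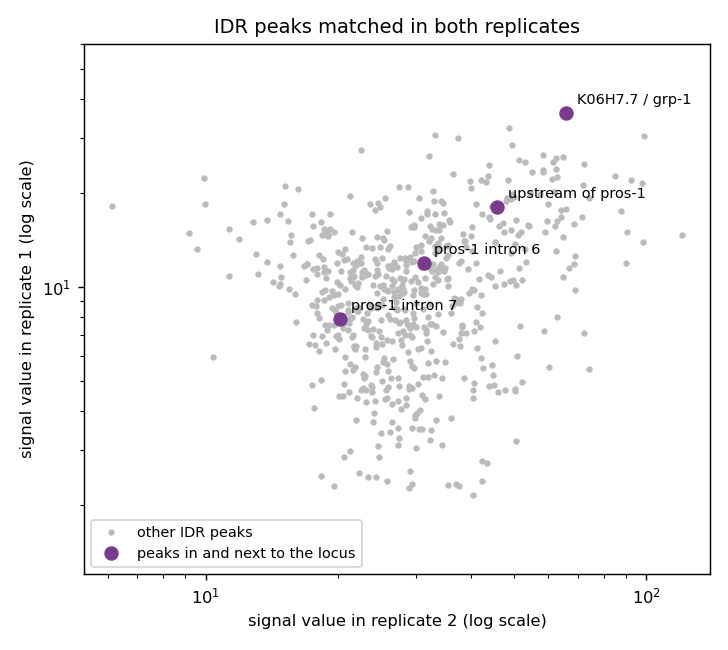
Signal value in replicate 1 (y) against replicate 2 (x), both on log scales, for the 607 IDR peaks matched within 100 bp in both replicates. The K06H7.7 and grp-1 peak is the highest point on the y axis at 36.0, and the pros-1 peaks lie within the cloud of other peaks.

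The DNA at the peak between K06H7.7 and grp-1 was poor in G and C compared with other strong PROS-1 peaks. Within 50 bp of the summit 35.6% of bases were G or C, against a mean of 52.2% ± 6.92 (SD over 737 IDR peaks) and 40.6% ± 9.06 (SD over the 29263 candidates that did not pass). Only 4 IDR peaks were lower, as were 28.7% of the candidates that did not pass. The whole 229 bp gap between the 2 genes had 29.7%, less than the DNA at the summit. Among the 100 strongest peaks none was lower, and among the 70 in divergent gaps none was lower (median 50.5%). This place depends on the window, since within 25 bp the value was 45.1% and 107 IDR peaks were lower, while within 100 bp it was 34.3% and 4 were lower. The comparison was chosen after the sequence was seen and is given without a test.

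The other peaks were also below the median of IDR peaks, 52.5%. The intron 7 summit had 39.6% G and C, with 28 IDR peaks lower, and the upstream peak had 40.6%, with 33 lower. The intron 6 summit, over the tRNA gene, had 48.5%, with 192 lower.

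**Figure D4:**
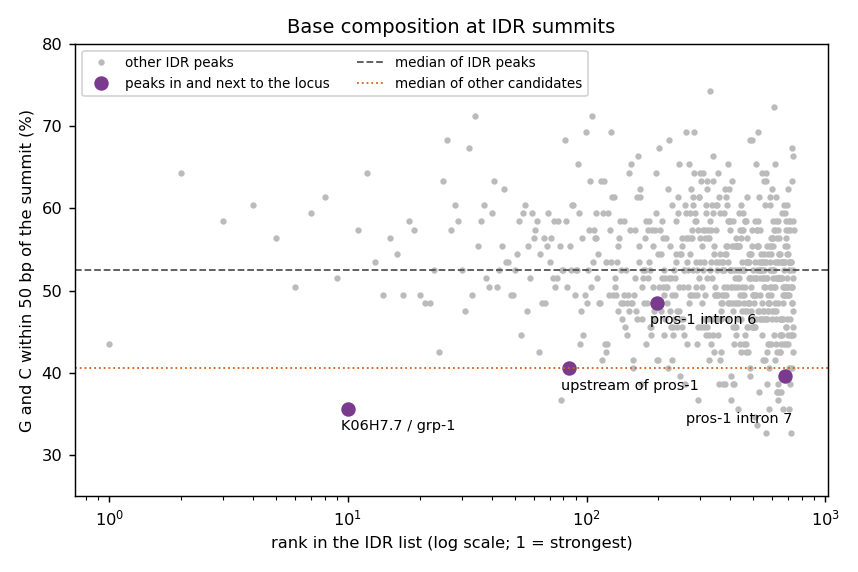
Share of G and C within 50 bp of the summit (y, %) against rank in the IDR list (x, log scale, 1 is the strongest) for all 737 IDR peaks. Dashed and dotted lines mark the medians of IDR peaks (52.5%) and of other candidates (40.6%). The K06H7.7 and grp-1 peak, at rank 10 and 35.6%, sits below all other peaks among the 100 strongest.

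The motifs searched had 2 matches within 50 bp of the 3 summits of the locus, and 3 within 100 bp. Within 50 bp of a summit, on both strands, the K06H7.7 and grp-1 peak held TGTTTGC, the site of the forkhead factor PHA-4, whose first base on the plus strand was 20 bp before the summit. This motif occurred at 3.66% of IDR peaks and 2.13% of candidates that did not pass. The intron 7 summit held the Prospero-type letters 16 bp after the summit, which occurred at 12.1% of IDR peaks and 7.57% of the others. No search motif occurred within 50 bp of the intron 6 summit.

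The other motifs searched had no match within 50 bp of the locus's summits. GAGAGAG, the most common at IDR peaks at 17.9% of IDR peaks and 3.90% of other candidates, and the GC-box GGGCGG, at 8.41% and 3.19%, had no match within 50 bp of any of the 3. TAATTA, at 1.09% and 3.31%, had none either. The tRNA B box, searched as GGTTCGA followed by any 2 bases and CC, occurred at 1.36% of IDR peaks and 0.32% of the others but not in K12H4.t1, whose sequence differs from these letters. A match is only a run of letters, and its absence says nothing of the factor.

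Candidates as a whole were on average somewhat denser around pros-1 than along chromosome III. Within 50000 bp to either side of pros-1 there were 42 pooled summits, or 4.03 per 10 kb against 3.37 over the chromosome. Replicate 1 had 50, or 4.80 per 10 kb against 3.20, and replicate 2 had 51, or 4.90 against 3.36. In bins of 5000 bp, the bin from 8070001 to 8075000, which holds the 3′ part of pros-1 and of dcr-1, had the most summits in every list, with 5 in the pooled list, 6 in replicate 1 and 6 in replicate 2. The fullest bins of chromosome III held 7, 7 and 8. The median bin held 2 pooled summits around pros-1 and 2 over the chromosome, and in each replicate 2 against 1. Of the 22 bins, 4 held 0 pooled summits, and the others were spread to both sides of the gene. Other stretches of this length were not compared.

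unc-119, the gene mutated in the strain and in such strains usually carried by the insertion as a marker, had fewer candidates within 50000 bp than pros-1 in each of the 3 candidate lists. unc-119 (III, 10902641 to 10908935) had 0 IDR summits and 7 pooled candidates in the body or within 5000 bp, of which the strongest had a signal value of 22.8 and rank 1021. Within 50000 bp there were 2.92 pooled summits per 10 kb and 2.26 in replicate 1, below the chromosome's density, and 3.86 in replicate 2, above it. The part of copy number in the density at either gene was not tested.

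The members' counts of candidates in the body and 5000 bp beyond were at most the 95th percentile over protein-coding genes in each candidate list, and their place among genes differed between lists. pros-1 had 6 summits in the pooled list, 7 in replicate 1 and 8 in replicate 2, numbers that 23.3%, 13.2% and 9.25% of protein-coding genes reach or pass. K06H7.7 had 3, 6 and 6 (67.6%, 22.2% and 23.4% of genes), and grp-1 had 5, 7 and 7 (35.8%, 13.2% and 14.8%). The median gene had 4 in each candidate list, so K06H7.7 was below it in the pooled list and above it in both replicates. In the IDR list pros-1 had 2, above the 95th percentile of 1, and 0.866% of genes reach or pass that number. K06H7.7 and grp-1 had 1 each (8.74% of genes). The longest stretch without a pooled summit in the locus ran 13456 bp, from 8072097 to 8085553, across dcr-1, apc-2 and K06H7.7, and 1.64% of such gaps on chromosome III were as long. In it replicate 1 had 3 summits and replicate 2 had 8, counted over 100 bp from its ends.

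**Figure D5:**
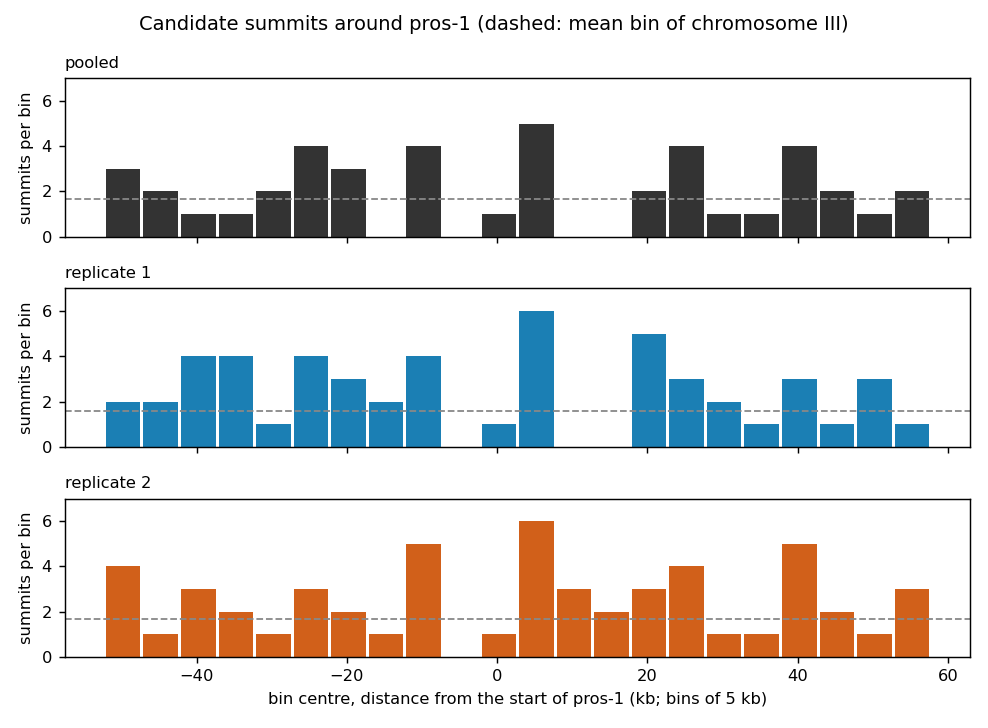
Candidate summits per 5 kb bin (y) by distance of the bin's centre from the start of pros-1 (x, kb) in the pooled list and each replicate. The dashed line is the mean bin of chromosome III, 1.68 in the pooled list. The tallest bin of each panel, with 5 or 6 summits, covers the 3′ part of pros-1 and the 3′ part of dcr-1.

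Of 12 genes known from glia or the excretory canal, 2 had an IDR summit in the body or within 5000 bp (16.7%, against 8.74% of all protein-coding genes, with no test). The count was 1 with the strongest candidates of replicate 2 alone and 4 with those of replicate 1 alone, so nothing particular to these genes is read from it. lit-1, which encodes a Nemo-like kinase and spans a long gene, had 2, the stronger in an intron with a signal value of 38.4 (rank 329). fig-1, which encodes a glial protein with thrombospondin repeats, had 1 beyond its 3′ end, with a signal value of 27.2 (rank 694). Both were weaker than the intron 6 peak of pros-1 (46.7). Against the intron 7 peak (27.5), that of lit-1 was stronger and that of fig-1 slightly weaker.

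The other 10 genes were vap-1, kcc-3, mls-2, vab-3, ztf-16, alr-1, lin-26, aqp-8, exc-4 and ceh-6. Their strongest pooled candidates had signal values from 9.26 at vap-1 (rank 10664), which encodes a secreted protein of sheath glia, to 19.1 at aqp-8 (rank 1445), a water channel of the canal.

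Peaks with the most similar ranks in the 3 lists were sought elsewhere in the genome, with likeness measured as the Euclidean distance in log10 rank over the pooled list and the 2 replicates. For the K06H7.7 and grp-1 peak they were a peak 45 bp upstream of tub-2 (ranks 22, 2 and 89, distance 0.678), an intergenic one on the X nearest to W02H3.3 (ranks 14, 10 and 29, distance 1.01) and one 76 bp upstream of iff-2 (ranks 28, 8 and 54, distance 1.05). For the intron 6 peak of pros-1 the distances were 0.071 for a peak 263 bp upstream of daf-19, 0.090 for one 174 bp upstream of rfc-4 and 0.103 for one 1168 bp upstream of srd-43. Steps in log10 rank are larger near the top of a list, so the distances of the 2 peaks are not compared. The likeness rests on 2 samples and on ranks only.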

How the data were processed

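ChIP-seq peak lists on ce11 were analysed from 2 biological replicates of 1 group, with replicate numbers from the labels. Per the text files deposited with the lists, the authors called candidate regions with a control for each replicate and for the pooled alignments, and thresholded them by IDR. The labels give the antibody as against pros-1 and the target as its eGFP fusion. The aligner, caller and IDR threshold are not given in the sources used here. The deposited signal value is the authors' score, of unstated scale, used only to rank and describe regions within a list. The deposited significance column is the -log10 of a q-value, by the authors. Lists on ce10 were not used. Read counts were not analysed here.

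Summits were placed on the WBcel235 genome of RefSeq with Ensembl 115 gene models. Chromosome ends in the lists lay within the WBcel235 lengths. Summits within 100 bp counted as shared. Ranks are by signal value. No test was run, since the members were chosen from the readout and there is 1 group. The members and lists were chosen with earlier results of these data known. Named genes are the members, genes within 5000 bp, unc-119, glia and canal genes with an IDR summit and, for the K06H7.7 and grp-1 peak and the strongest pros-1 peak, the 3 most alike in rank. The other glia and canal genes are named as members of that list. K01G5.10 with tasp-1, K12H4.7, K12H4.11 and the upstream peak were named after their values were seen. Counting of summits and motifs was checked on planted positions and sequences. Python 3.11.15, numpy 2.4.6, pandas 2.3.3 and matplotlib 3.10.9 were used.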

Additional observations from a re-analysis of the deposited data

How the results depend on the processing

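Of 29 alternative values for 8 results, 21 stayed within 1.5 times the value reported. The count of IDR summits near the 3 genes was 3, and it was 2 to 4 over the other settings tried. With the top candidates of replicate 2 alone it was 2, without the intron 7 peak, and with those of replicate 1 alone 3, where the summit downstream of pros-1 stood in for it. Windows of 2000 or 10000 bp gave 9 and 14 pooled candidates, and those of single replicates 16 and 14. Summits shared by the replicates numbered 6 to 8. The share of protein-coding genes with an IDR summit nearby fell from 8.74% to 5.13% within 2000 bp, 2.55% in promoter windows and 4.44% for the stronger part of the list, by construction of narrower windows or fewer peaks. The glia and canal list had 2 genes, with 1 within 2000 bp or in promoter windows, 1 without replicate 1 and 4 without replicate 2. The cause was not tested. Peaks with lower GC than that at K06H7.7 and grp-1 numbered 4, and 107 within 25 bp, an alternative added after seeing the data. No paired analysis was possible because there is 1 group and no test. Depth is unknown, so an empty window does not show absence of binding.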
